A study of Mus musculus with 2 samples.

Results

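The genes described here are 7 listed as core macrophage identity genes: Emr1 (the older symbol of Adgre1), Cd68, Lyz1, Lyz2, Cd14, Aif1 and Mpeg1. They were chosen by name, from the gene symbols of a table of 23284 genes, and all 7 were found in it. Earlier results of these data were known when the list was chosen. The samples are macrophages of C57BL/6 mice, taken from the infarcted heart 3 days after the left anterior descending artery had been tied off. The Ly6Chi population and the Ly6Clo population differ in surface Ly6C, an antigen that is high on monocytes newly arrived from blood, and each has 1 RNA-seq library. No further allele or agent, and no number of animals per library, is named for either population.

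The authors' deposited table compares the 2 libraries by a signed statistic, a score with no stated unit, and ranks genes by its size, with rank 1 for the largest. Its other 2 columns, headed by codes found in neither sample's label, were left aside. Levels and fold changes of the genes are therefore not given, the macrophage label was not checked against the level of its markers in each library, and neither sign can be assigned to Ly6Chi or to Ly6Clo cells. A single library per population allows no replicate error and no test. The negative side is located only by Ly6c2, which encodes a Ly6C antigen and ranks 18 in the authors' deposited table, at -1.78. In bulk RNA, a smaller share of macrophages and less of a transcript per macrophage cannot be told apart.

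A macrophage is recognised by what it eats, digests and senses. Emr1 encodes F4/80, the adhesion G protein-coupled receptor that defines mouse tissue macrophages, and Cd14 encodes the co-receptor that hands lipopolysaccharide to TLR4. Cd68 is a heavily glycosylated protein of late endosomes and lysosomes. Lyz1 and Lyz2 are lysozymes, which cut the bacterial cell wall: Lyz2 is the form of myeloid cells, and Lyz1 is best known from Paneth cells of the gut. Mpeg1 encodes perforin-2, a pore-forming protein that attacks engulfed bacteria, and Aif1 encodes IBA1, a calcium-binding protein that bundles actin during membrane ruffling and phagocytosis.

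The sequences of the lysozyme pair come first, because they bear on how far the values of these 2 members can be separated. Lyz2 (ENSMUSG00000069516) lies on chromosome 10 from 117277331 to 117282321 on the minus strand of GRCm38, the assembly also called mm10. Lyz1 (ENSMUSG00000069515) lies on the same strand from 117287797 to 117292868, 5475 bases away. The coding part of exon 1 is printed for each from the GENCODE transcripts, at chr10:117292703-117292838 for Lyz1 and chr10:117282107-117282242 for Lyz2, 5′ to 3′ on the coding strand. Capitals mark the bases that differ between them.
Lyz1: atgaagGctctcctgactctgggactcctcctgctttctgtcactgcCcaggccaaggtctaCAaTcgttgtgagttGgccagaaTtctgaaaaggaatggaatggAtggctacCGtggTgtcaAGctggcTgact
Lyz2: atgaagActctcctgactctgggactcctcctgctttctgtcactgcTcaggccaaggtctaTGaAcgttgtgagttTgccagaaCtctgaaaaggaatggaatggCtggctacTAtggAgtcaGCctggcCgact

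These 136 bases held 14 of the 22 differences found across 444 coding bases, stop codon left out. Coding identity was therefore 95.0%, and the longest stretch without a difference was 118 bases. Of the windows of 50 bases in the Lyz2 transcript, 15.4% also occurred unchanged in the Lyz1 transcript, and 16.1% of Lyz1 windows occurred in Lyz2. For windows of 100 bases the shares were 1.97% and 2.06%. Neither read length nor the treatment of reads with several matches is given in the sources used here, so some reads of either gene could have been assigned to the other.

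**Figure D1:**
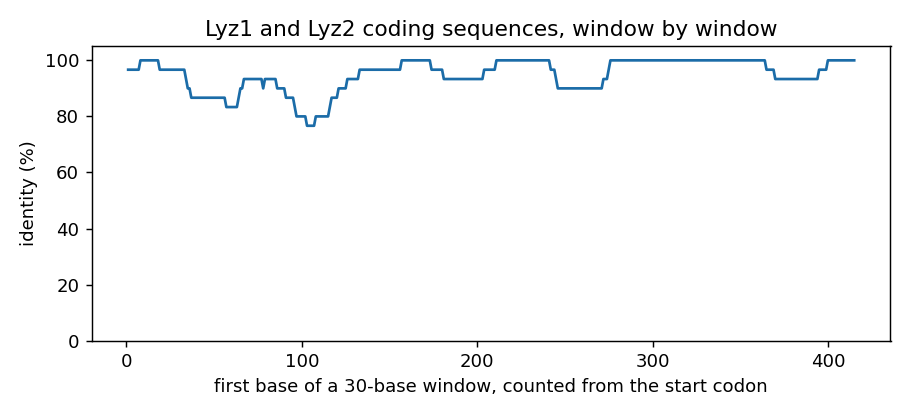
Identity between the Lyz1 and Lyz2 coding sequences (vertical axis, percent) in windows of 30 bases, against the first base of the window counted from the start codon (horizontal axis). The lowest window is at 76.7%, in the first exon, and 164 of 415 windows are identical.

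All 7 genes had a negative statistic in the authors' deposited table, the side on which Ly6c2 lies. Across the table, 29.6% of the 23284 genes were negative, or 42.3% of the 16302 genes with a statistic other than 0. The members ran from -0.72 for Mpeg1 to -0.22 for Emr1 in the authors' deposited table, with a median of -0.46. The median over all genes was 0, and over the genes with a statistic other than 0 it was 0.01. Of all genes, 5.82% stood at or below the highest member, Emr1, or 8.31% of the genes with a statistic other than 0. Each of the 7 was thus on the negative side but nearer to 0 than Ly6c2.

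**Figure D2:**
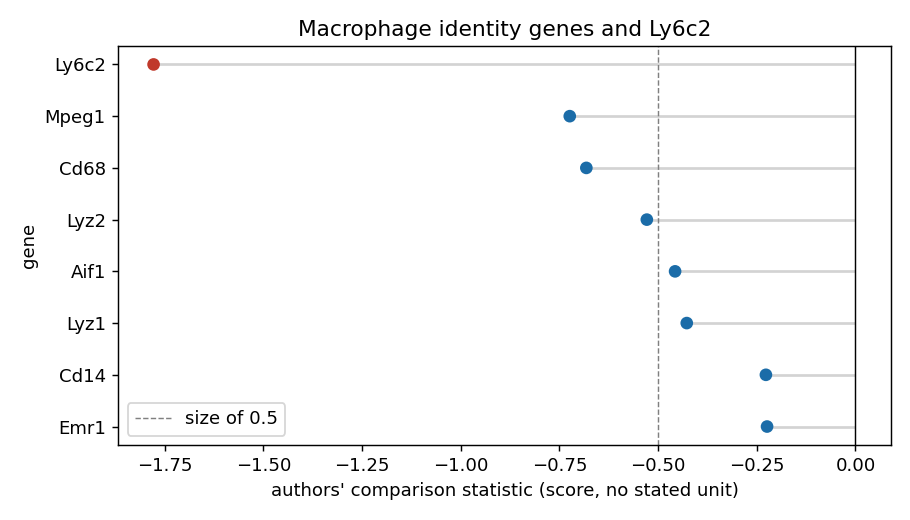
The authors' comparison statistic (horizontal axis, a score with no stated unit) for the 7 macrophage identity genes (blue) and Ly6c2 (red), with a dashed line at a size of 0.5. All 8 points lie left of 0, Mpeg1, Cd68 and Lyz2 pass the dashed line, and Ly6c2 at -1.78 lies beyond all 7.

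Among the members, Mpeg1, Cd68 and Lyz2 held the 3 values furthest from 0. Mpeg1, at -0.72, ranked 470 in the authors' deposited table, with 58 of 23284 genes more negative. The gene is on chromosome 19, from 12460779 to 12465283 on the plus strand (ENSMUSG00000046805). Cd68 followed at -0.68, ranked 548 in the authors' deposited table, with 73 genes more negative. Its position is chromosome 11, from 69664213 to 69666153 on the minus strand (ENSMUSG00000018774). Only 14 genes of the table stood between these members.

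Lyz2, at -0.53 and ranked 996 in the authors' deposited table, was the third member at or below -0.5. A statistic that low was found in 3 of the 7 members, against 0.988% of all genes and 1.41% of genes other than 0. These backgrounds were not matched to the members for abundance, on which the size of the score may depend. No member reached -1, as did 0.0644% of all genes, and no member lay at or above 0.5, as did 3.77%. Lyz1, at -0.43, ranked 1487 in the authors' deposited table. The lysozymes thus stood on one side, with Aif1 between them, and given their shared sequence their values may not be independent, which was not tested.

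Aif1, the actin-bundling member, stood at -0.46 and ranked 1330 in the authors' deposited table. Its gene is on chromosome 17, from 35170991 to 35176068 on the minus strand (ENSMUSG00000024397). Cd14 and Emr1, the surface receptors among the members, stood closest to 0. Cd14, at -0.23, ranked 3889 in the authors' deposited table, and lies on chromosome 18 from 36725067 to 36726798 on the minus strand (ENSMUSG00000051439). Emr1, at -0.22, ranked 4000 in the authors' deposited table, and its gene spans 124837 bases of chromosome 17, from 57358691 to 57483527 on the plus strand (ENSMUSG00000004730). Between Lyz1 and Cd14 lay the widest step among the members, 0.20, which 967 other genes filled. Without replicates, none of these steps can be set against a spread. Exons of none of the 7 overlapped those of another gene in GENCODE M21, on either strand (0 of 7).

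**Figure D3:**
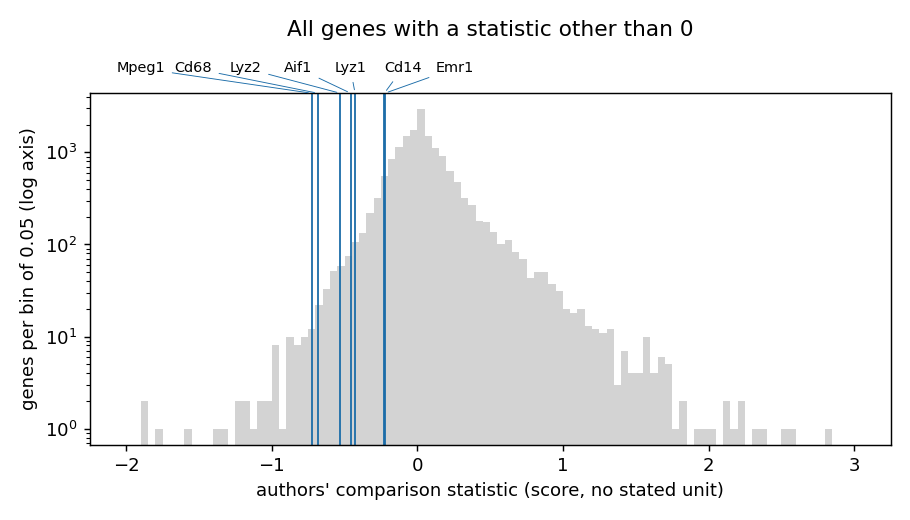
Distribution of the authors' comparison statistic (horizontal axis, a score with no stated unit) over the 16302 genes with a value other than 0, with genes per bin on a log axis. Blue lines mark the 7 members, which all fall left of 0 and within the range where the distribution thins out.

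Close relatives of the members did not all share their side. The background for the counts below is 29.6% negative over all genes, or 42.3% over genes with a statistic other than 0. In the Adgre family of adhesion receptors, Emr1 stood alone on the negative side: Emr4, the receptor also called FIRE, had 0.29 and Cd97, a leukocyte receptor for CD55, had 0.30 in the authors' deposited table. The LAMP family of lysosomal membrane glycoproteins, to which Cd68 belongs, was negative in 4 of the 4 genes found, Cd68 included. Lamp1 had -0.56, Lamp2 -0.23 and Lamp3 -0.07 in the authors' deposited table, and Lamp5 was not among its symbols. Of the 8 lysozyme-like genes, only Lyz1 and Lyz2 were negative, 3 were positive and 3 stood at exactly 0. The highest of them was Lyzl4, at 0.19 in the authors' deposited table. Prf1, the perforin of killer lymphocytes and a relative of Mpeg1, was listed at 0 in the authors' deposited table. Of the 5 genes of the AIF1 family and its actin partners, 2 were negative and 3 positive, with a median of 0.01. Besides Aif1, the actin-severing gene Cfl1 was negative at -0.08, while Aif1l, the closest relative of Aif1, had 0.29, the actin-bundling gene Lcp1 0.23 and the small GTPase gene Rac1 0.01 in the authors' deposited table.

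The lipopolysaccharide pathway genes around CD14 had a median score nearer to 0 than the members, though some lay further from 0 than Cd14 itself. Of 11 partner genes, 8 were negative and 3 positive, with a median of -0.06, and none reached a size of 0.5. Negative values were held by 29.6% of all genes, or 42.3% of those with a statistic other than 0. Few genes of the table reached a size of 0.5 either, with 0.988% at or below -0.5 and 3.77% at or above 0.5. Tlr4, the signalling receptor that CD14 loads, had -0.25 in the authors' deposited table, close to the -0.23 of Cd14 itself. Its co-receptor gene Ly96, which encodes MD-2, had -0.11 in the authors' deposited table. The lowest was Itgb2, the beta chain of leukocyte integrins, at -0.35, and the highest Ticam2, the adaptor TRAM, at 0.43 in the authors' deposited table. Tlr4 and both co-receptors therefore lay on the side of Ly6c2, and Tlr2, at 0.18 in the authors' deposited table, the adaptor Myd88, at 0.06, and Ticam2 on the other.

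Other macrophage identity genes were divided where the 7 members were not. Of 14 such genes, 8 were negative and 6 positive, with a median of -0.20, and 2 were at or below -0.5. Among genes with a statistic other than 0, 42.3% were negative and 1.41% stood at or below -0.5. Fcgr1, the high-affinity IgG receptor CD64, was the lowest at -0.79, ranked 388 in the authors' deposited table, beyond Mpeg1. Ctss, the cathepsin that trims the class II invariant chain, had -0.53 in the authors' deposited table, level with Lyz2. Csf1r, the receptor for the growth factor on which macrophages depend, had 0.25 in the authors' deposited table. Cybb, the catalytic subunit of the phagocyte oxidase, had 0.41, and the sialic acid receptor gene Cd33 had the highest value, 0.49, in the authors' deposited table. A shared direction was thus not a property of every macrophage gene examined.

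**Figure D4:**
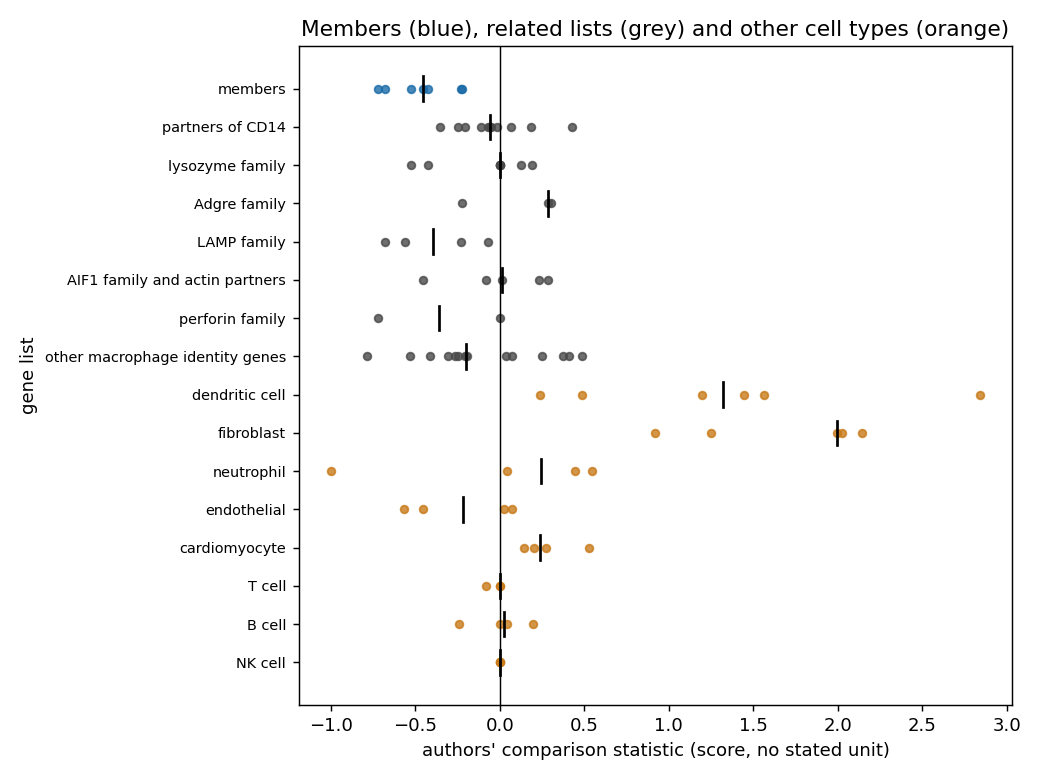
The authors' comparison statistic (horizontal axis, a score with no stated unit) for each gene of the member list (blue), 7 related lists (grey) and 8 marker lists of other cell types (orange), with a black bar at each list's median. The members cluster left of 0, while all dendritic cell, fibroblast and cardiomyocyte markers lie right of it.

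Markers of other cells moved in the comparison as well. All 6 dendritic cell markers were positive, from 0.24 for Xcr1 to 2.84 for Ccr7 in the authors' deposited table. All 5 fibroblast markers were positive too, from 0.92 for Pdgfra to 2.14 for Col1a1 in the authors' deposited table. The 4 cardiomyocyte markers ran from 0.14 for Myh6 to 0.53 for Tnnt2 in the authors' deposited table. Myh6, Actc1 and Tnni3 held tied ranks (6528.5, 3000.5 and 4462.5), and how many reads their scores rest on was not examined. Across the table, 9399 of the 23284 genes were positive, and 16302 had a statistic other than 0. At or above 0.5 stood 4 dendritic cell, 5 fibroblast and 1 cardiomyocyte markers, against 3.77% of all genes. The dendritic cell, fibroblast and cardiomyocyte lists thus lay opposite the macrophage members in sign. The part that other cells play in the members' values was not tested. Neutrophil markers lay on both sides, with Mmp8 at -1.0 and S100a8 at 0.54 in the authors' deposited table, and Ly6g was not among its symbols. Endothelial markers were also divided, from -0.57 for Kdr to 0.07 for Tek in the authors' deposited table. Among T cell markers, Cd3d had -0.08, and Cd3e and Cd3g were listed at 0, in the authors' deposited table. Of the NK cell markers, Klrb1c had 2.42e-06, and Ncr1 and Gzma were listed at 0, in the authors' deposited table. B cell markers ran from -0.24 for Cd79b to 0.20 for Cd79a in the authors' deposited table.

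The promoters of the members were read from RefSeq (GRCm38.p6), in which 5 of the 7 matched: Cd68, Lyz1, Lyz2, Aif1 and Mpeg1. The 250 bases before the start are shown for Mpeg1 and Cd68, the members with the largest statistics, at chr19:12460520-12460769 on the plus strand and chr11:69666171-69666420 on the minus strand. Capitals mark matches on either strand to GAGGAA, a core bound by the myeloid factor PU.1, to TGANTCA, the AP-1 site, or to CACGTG, the E-box of the lysosomal factors of the MITF and TFE family.
Mpeg1: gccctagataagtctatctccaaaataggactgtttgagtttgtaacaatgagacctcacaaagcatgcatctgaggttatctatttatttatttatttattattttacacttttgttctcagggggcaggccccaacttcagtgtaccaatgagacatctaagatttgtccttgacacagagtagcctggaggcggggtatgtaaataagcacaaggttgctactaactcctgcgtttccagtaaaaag
Cd68: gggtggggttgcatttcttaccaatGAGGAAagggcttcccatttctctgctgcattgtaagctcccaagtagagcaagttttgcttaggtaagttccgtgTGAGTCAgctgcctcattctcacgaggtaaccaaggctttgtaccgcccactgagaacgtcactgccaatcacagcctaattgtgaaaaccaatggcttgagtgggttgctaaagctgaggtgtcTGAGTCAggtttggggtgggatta

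Cd68 held 1 match to GAGGAA and 2 to TGANTCA, the nearer of which spans 24 to 18 bases before the start, and Mpeg1 held no match. Of the other 3, Aif1 held 1 GAGGAA match and the lysozymes none, and CACGTG was found in 0 of the 5. Over 32851 promoters of the same length, 23.3% held GAGGAA, 6.75% TGANTCA and 6.02% CACGTG, and no match overlapped another in the 5. The promoters of Lyz1 and Lyz2 were identical at 78.8% of aligned positions, while every other pair of the 5 stood between 46.7% and 51.4%.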

How the data were processed

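RNA from 1 library each of Ly6Chi and Ly6Clo macrophages was sequenced. The build was mm10 and the tools included CASAVA 1.8.2 and TopHat, per the submitters' processing notes. How reads were counted, annotated, scaled and assigned to strands, and what produced the statistic, is not given in the sources used here. A signed score per gene and its rank were deposited, per the file headers. Ranking genes by the size of that score matched 23284 of 23284 deposited ranks within 1e-06. The 2 value columns match no sample label and were left unused, so depth, CPM values, TMM scaling, pseudocounts and summed lysozyme counts were not analysed here. The letters WAD in the name of the deposited table may stand for weighted average difference, though no header says so. If the score weights ratios by abundance, a small score need not mean a small ratio, nor a large score a large ratio.

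The members, the comparator lists and the thresholds of 0.5 and 1 were chosen with earlier results of these data known. Named genes were the 7 members and, from each list, the lowest and highest. Other relatives, marker genes and list members such as Tlr4, Ly96, Ctss, Csf1r, Cybb, Lcp1, Cfl1 and Rac1 were named after their values were seen. Lists were described by counts and medians, and the summary was checked on known values. Gene positions came from GENCODE M21 (GRCm38). Promoter pairs were aligned globally (match 1, mismatch -1, gap opening -2, extension -0.5). Python 3.11.15, pandas 2.3.3, NumPy 2.4.6, Biopython 1.88 and Matplotlib 3.10.9 were used.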

Additional observations from a re-analysis of the deposited data

How the results depend on the processing

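No paired analysis was possible because there is a single library of each population, and without either one nothing can be compared. With a threshold of 1 in place of 0.5, the number of members passing on the negative side went from 3 to 0, since no member reaches that size. Counting genes with a statistic other than 0 as background changed the share at or below -0.5 from 0.988% to 1.41%. The median of the members was -0.46, their mean -0.47 and the median without Lyz1 -0.49. All 7 stayed negative at a minimum size of 0.1, an alternative chosen after seeing the data. That cut could not have removed any member, since the one nearest to 0, Emr1, stood at -0.22. Changes of pseudocount, of library scaling and the summing of Lyz1 and Lyz2 were not run, because they need the table's 2 value columns, which match no sample label and were left unused.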
